A study of Rattus norvegicus with 16 samples.

Results

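The diencephalon of rats given zinc again after a zinc-deficient period (ZR, 4 arrays) was compared with that of rats still deficient (ZD, 4 arrays). These 8 arrays were chosen by group from a series of 16, each array holding the RNA of 1 rat. All were male Sprague-Dawley rats that were 5 weeks old when the feeding phase began, after a week of adaptation to the control diet. ZD rats had free access for 10 days to a deficient diet (0.6 mg zinc per kg) and were killed on day 10. ZR rats had the same 10 days, followed by 6 days on a fixed daily ration of 13 g of the control diet with 30.0 mg zinc per kg, and were killed on day 16. The other 8 arrays came from rats that never lacked zinc. PF rats were pair-fed the control diet for 10 days to match the intake of ZD rats, and ZRPF rats were pair-fed for 10 days and then had the same 13 g ration until day 16. All 4 groups were offered 300 mM NaCl in a bottle preference test on days 6 to 8, and ZR and ZRPF rats again on days 14 to 16. Of the 9 rats that began in ZR, 3 were left out by the submitters for a salt preference ratio under 0.5, and 1 of 6 ZRPF rats for one above it. The 4 rats per group that went onto arrays had been picked as average in body weight, plasma zinc and salt preference, so they may vary less than unselected rats would.

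The diencephalon holds the thalamus, which relays sensory and motor signals to the cortex, and the hypothalamus, which governs feeding, salt and water balance, temperature and pituitary hormones. Zinc is a structural or catalytic part of many enzymes and zinc finger proteins, is stored with glutamate in some synaptic vesicles, and is moved across membranes by ZIP importers and ZnT exporters and buffered by metallothioneins. Young rats on a zinc-deficient diet eat less and grow slowly, and both return when zinc is given.

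Values are log2 of the deposited signal intensities, and a difference of 1 is a doubling. Per-rat values are listed in the order ZD2, ZD3, ZD8, ZD9 and ZR7, ZR10, ZR13, ZR15. A gene was called when its adjusted p in limma was under 0.05, and each gene is represented by its brightest tested probe set. Errors of differences are standard errors of that fit.

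ZR and ZD rats belonged to different feeding experiments, so recovery, 6 more days of age, the ration, a second salt test and array preparation cannot be told apart in ZR against ZD. Control RNAs added to every sample show the last of these. The mean log2 signal of the 12 poly-A spike probe sets was 8.11 to 8.28 in ZD and 6.73 to 7.22 in ZR, without overlap (exact permutation test, two-sided, p = 0.0286, the smallest that 4 against 4 arrays can give). The shift was larger at the 5′ end of the spikes (7.44 ± 0.11 to 5.55 ± 0.48, SD, n = 4) than at the 3′ end (8.98 ± 0.06 to 8.15 ± 0.13). For the rats' own Actb RNA, the 3′ minus 5′ log2 difference was 1.51 ± 0.13 in ZD and 2.13 ± 0.07 in ZR. PF and ZRPF rats showed the same shift, with a mean spike signal of 8.15 ± 0.11 and 6.92 ± 0.10. Spikes added just before hybridization averaged 11.32 ± 0.09 in ZD and 11.31 ± 0.21 in ZR. Thalamus markers were all above the signal filter (7 of 7), as were 7 of 8 hypothalamus markers. Markers of neighbouring tissue and other cells passed it to differing extents. Ependyma had 4 of 4, endothelium 3 of 3, meninges and mural cells 5 of 6 and choroid plexus 3 of 5. Midbrain had 2 of 3, striatum 2 of 4, cortex and hippocampus 1 of 4, pituitary 1 of 4 and pineal 0 of 3.

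**Figure D1:**
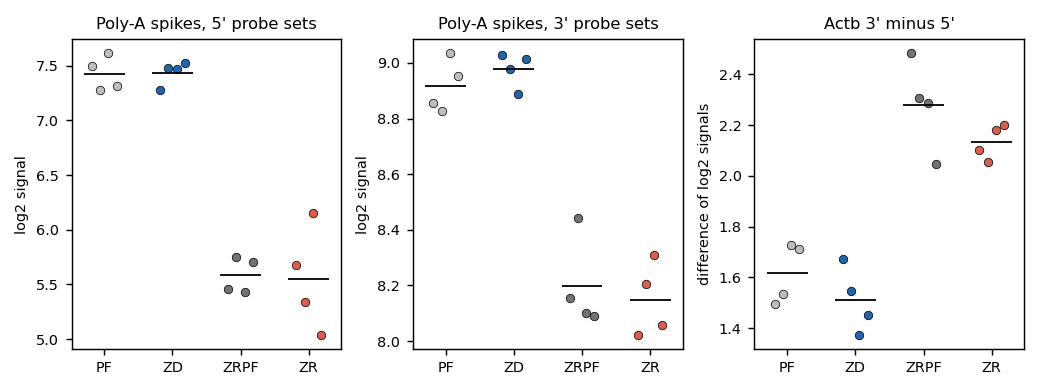
Log2 signal of the poly-A spikes at their 5′ and 3′ probe sets (means of 4 spikes) and the 3′ minus 5′ log2 difference of Actb, 1 point per array with a bar at the group mean, for PF, ZD, ZRPF and ZR. Both 16-day groups lie apart from both 10-day groups in all 3 measures.

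In ZR against ZD, 2692 of 15521 tested probe sets passed the threshold (17.3%), 1422 higher and 1270 lower in ZR. By gene, 1538 of 9278 were called (16.6%), of which 757 were higher (8.16%) and 781 lower (8.42%). For 1795 genes (19.3%) the 4 ZR values lay wholly above or below the 4 ZD values. Among called genes this held for 601 of the 757 higher and 636 of the 781 lower ones. Non-overlap in a called gene therefore adds little to its call. Larger differences ran mostly upward, since 28 of the higher genes but only 4 of the lower ones differed by at least 1 on the log2 scale. Some of these higher genes, such as Fam168a and Rorb, had ZD values mostly below the filter level of 7.35. Whether low signal contributed to this split was not tested. The Gapdh 3′ minus 5′ difference did not overlap between ZD and ZR (0.11 ± 0.05 and 0.24 ± 0.04), and a fit with it as a covariate left 786 probe sets.

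The same days separated PF from ZRPF rats, which had zinc throughout. There 858 genes were higher (9.25%) and 569 lower (6.13%) in ZRPF. Of the 1538 genes called in ZR against ZD, 1473 differed in the same direction between ZRPF and PF, and 781 were also called there in that direction. These 781 were 50.8% of the calls in ZR against ZD and 54.7% of those in ZRPF against PF. The 757 higher genes had a median difference of 0.42 in ZR minus ZD and 0.38 in ZRPF minus PF, and the 781 lower genes -0.33 and -0.21. Across all tested genes the 2 differences correlated with r = 0.69, a description over genes that are not independent replicates and that share the experiments' array preparation. The difference between the 2 contrasts, (ZR - ZD) - (ZRPF - PF), was tested for every gene. By limma 0 of 9278 genes passed (0%), the smallest adjusted p was 0.375, and 600 genes had an unadjusted p under 0.05. Leaving out ZD9 gave 1 probe set, as did leaving out ZRPF4, and leaving out any other single array gave 0. With each array centred on its median, the split of the pair-fed probe set calls moved from 1475 higher and 955 lower to 975 and 2146.

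**Figure D2:**
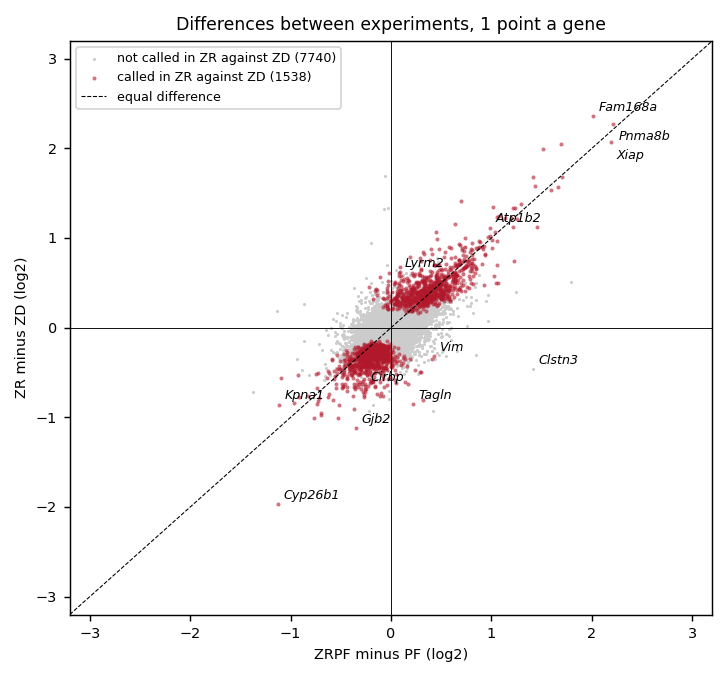
Log2 difference ZR minus ZD (vertical) against ZRPF minus PF (horizontal) for each tested gene, red where the gene was called in ZR against ZD, with the line of equal differences. Most called genes lie at the lower left and upper right, whereas Vim, Tagln and Clstn3 lie below 0 on the vertical axis and above 0 on the horizontal one (1 gene, Ttr, lies outside the axes).

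The genes most clearly higher in ZR included a sodium pump subunit, cytoskeletal and synaptic genes and an angiogenic factor. Atp1b2, the beta 2 subunit of the sodium pump, had 11.76, 11.75, 11.56 and 11.56 in ZD rats and 12.76, 12.77, 12.64 and 12.90 in ZR rats. The lowest ZR value was above the highest ZD value, and the difference was 1.11 ± 0.07 (limma, adjusted p = 3.2e-08), beside 0.98 ± 0.07 in ZRPF minus PF. Xiap, an inhibitor of caspases, had 7.95, 7.98, 7.80 and 7.36 in ZD and 9.81, 10.16, 9.64 and 9.74 in ZR, a difference of 2.07 ± 0.15 beside 2.19 ± 0.15 in the pair-fed rats. Vegfa, the growth factor of blood vessels, had 9.70, 9.72, 9.89 and 9.70 in ZD and 10.47, 10.66, 10.60 and 10.64 in ZR. It rose by 0.84 ± 0.08 beside 0.53 ± 0.08 in ZRPF minus PF, and the difference of these differences was 0.31 with an unadjusted p of 0.014.

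Npepps, a zinc-dependent aminopeptidase, rose from 9.73, 9.73, 9.87 and 9.56 to 10.49, 10.54, 10.52 and 10.56, with pair-fed rats differing by 0.71 ± 0.07. Other genes of smallest p were Zfp74 (1.58 ± 0.12), a zinc finger protein, Naa15 (1.22 ± 0.10), a subunit of the main N-terminal acetyltransferase, Ddx39b (0.96 ± 0.08), a helicase of mRNA export, and Tmem151a (0.88 ± 0.08). Mapre2 (0.82 ± 0.07), which binds growing microtubule ends, and Map1a (0.75 ± 0.07), which binds along microtubules, rose as well. Their pair-fed differences lay between 0.68 and 1.44. ZD and ZR rats did not overlap for any of these 6 genes, which were picked by their small p in this contrast. The 3 other probe sets of Naa15 differed less, by 0.31 and 0.46 (called) and 0.29 (not called). Pals2, a membrane scaffold protein, rose by 1.21 ± 0.10 on its brightest probe set, but its 4 other probe sets ran from -0.13 to 0.36 and none of them was called.

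Some of the largest called increases, such as that of Fam168a, were in genes of low signal in ZD. The filter asked for a mean log2 signal of at least 7.35 over all 16 arrays. Every ZD value of Fam168a and most of those of Dnmt3a lay below that level. Both genes therefore passed the filter through higher values in other groups, and the size of their rise is less certain. Fam168a had 7.004, 6.97, 6.25 and 6.29 in ZD and 9.44, 9.44, 8.35 and 8.71 in ZR, a difference of 2.36 ± 0.23 beside 2.01 ± 0.23 in the pair-fed rats. Pnma8b, of the paraneoplastic antigen family, differed by 2.27 ± 0.31, and its second probe set by 1.34 ± 0.16. Dnmt3a, a DNA methyltransferase that sets new methyl marks, had 7.48, 7.28, 6.27 and 6.02 in ZD and 8.30, 8.40, 8.63 and 8.46 in ZR. Both it (1.68 ± 0.26) and Ankrd11 (1.68 ± 0.27), a chromatin regulator, differed by like amounts in ZRPF minus PF (1.71 ± 0.26 and 1.41 ± 0.27). Vof16 differed by 2.04 ± 0.43, and its call was lost with the Gapdh ratio as a covariate.

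Among the lower genes, Cyp26b1 stood out by size. This enzyme breaks down retinoic acid and is known from the meninges and from neurons. It had 9.44, 10.01, 9.96 and 8.97 in ZD and 7.43, 7.88, 7.35 and 7.84 in ZR, so that every ZR rat was lower than every ZD rat by more than 1. The difference was -1.97 ± 0.23 (limma, adjusted p = 1.69e-05) beside -1.12 ± 0.23 in the pair-fed rats. Gjb2, the gap junction protein connexin 26, had 9.61, 10.33, 10.40 and 9.40 in ZD and 8.90, 9.02, 8.76 and 8.58 in ZR. Its difference of -1.12 ± 0.18 stood beside -0.34 ± 0.18 in the pair-fed rats, which was not called, and its call in ZR against ZD was lost with the Gapdh ratio as a covariate. The unadjusted p for the difference between the 2 contrasts was 0.017 for Cyp26b1 and 0.008 for Gjb2.

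The cold-inducible RNA-binding protein Cirbp was lower on all 3 of its probe sets. On the brightest it had 10.34, 10.34, 10.31 and 10.49 in ZD and 9.82, 9.56, 9.81 and 9.69 in ZR, a difference of -0.65 ± 0.08 beside -0.26 ± 0.08 in the pair-fed rats. The other probe sets differed by -1.27 ± 0.11 and -1.16 ± 0.16, beside -0.61 and -0.58. Rbm3, a second RNA-binding protein made in the cold, had 11.80, 11.85, 12.02 and 11.87 in ZD and 11.60, 11.35, 11.89 and 11.22 in ZR. Its groups overlapped, its difference of -0.37 ± 0.12 was near the threshold (limma, adjusted p = 0.0482), and the call was lost when any rat but ZR13 was left out. Among other alternatives, the Gapdh ratio as a covariate and a fit of the 8 ZD and ZR arrays alone lost it too. Rbm3 differed by 0.01 ± 0.12 in ZRPF minus PF. U2af1, which recognises the 3′ splice site, fell by 0.69 on the log2 scale (SE 0.09), from 10.77, 10.51, 10.54 and 10.37 to 9.62, 9.89, 9.92 and 10.01. Its pair-fed difference was -0.26 ± 0.09, not called, and the unadjusted p between contrasts was 0.0045, as against 0.0035 for Cirbp.

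The lower genes with the 3 smallest p were Rasal2, Dync1li1 and Kpna1. Rasal2, a GTPase-activating protein for Ras, had 10.30, 10.31, 10.12 and 10.31 in ZD and 9.42, 9.43, 9.41 and 9.48 in ZR, a difference of -0.82 ± 0.07 beside -0.73 ± 0.07. The dynein light intermediate chain gene Dync1li1 differed by -0.77 ± 0.07 beside -0.91 ± 0.07, and Kpna1, an importin that carries proteins into the nucleus, by -0.86 ± 0.09 beside -1.12 ± 0.09. The other probe sets of Kpna1 differed less, by -0.33 ± 0.11 (called) and -0.10 ± 0.12 (not called). Akirin2, a small nuclear protein, differed by -0.96 ± 0.12 beside -0.69 ± 0.12. Usp8, a deubiquitinating enzyme of endosomes, differed by -0.63 ± 0.09, and Lactb2, a mitochondrial nuclease, by -0.49 ± 0.07. The remaining large decreases were in Zbtb41 (-1.01 ± 0.20), a zinc finger protein, Lamp5 (-1.003 ± 0.26), a membrane protein of some inhibitory neurons, Inka2 (-0.98 ± 0.22), an inhibitor of a Pak kinase, and Castor2 (-0.87 ± 0.15), a relative of an arginine sensor. The calls of Zbtb41 and Lamp5 were lost with the Gapdh ratio as a covariate.

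**Figure D3:**
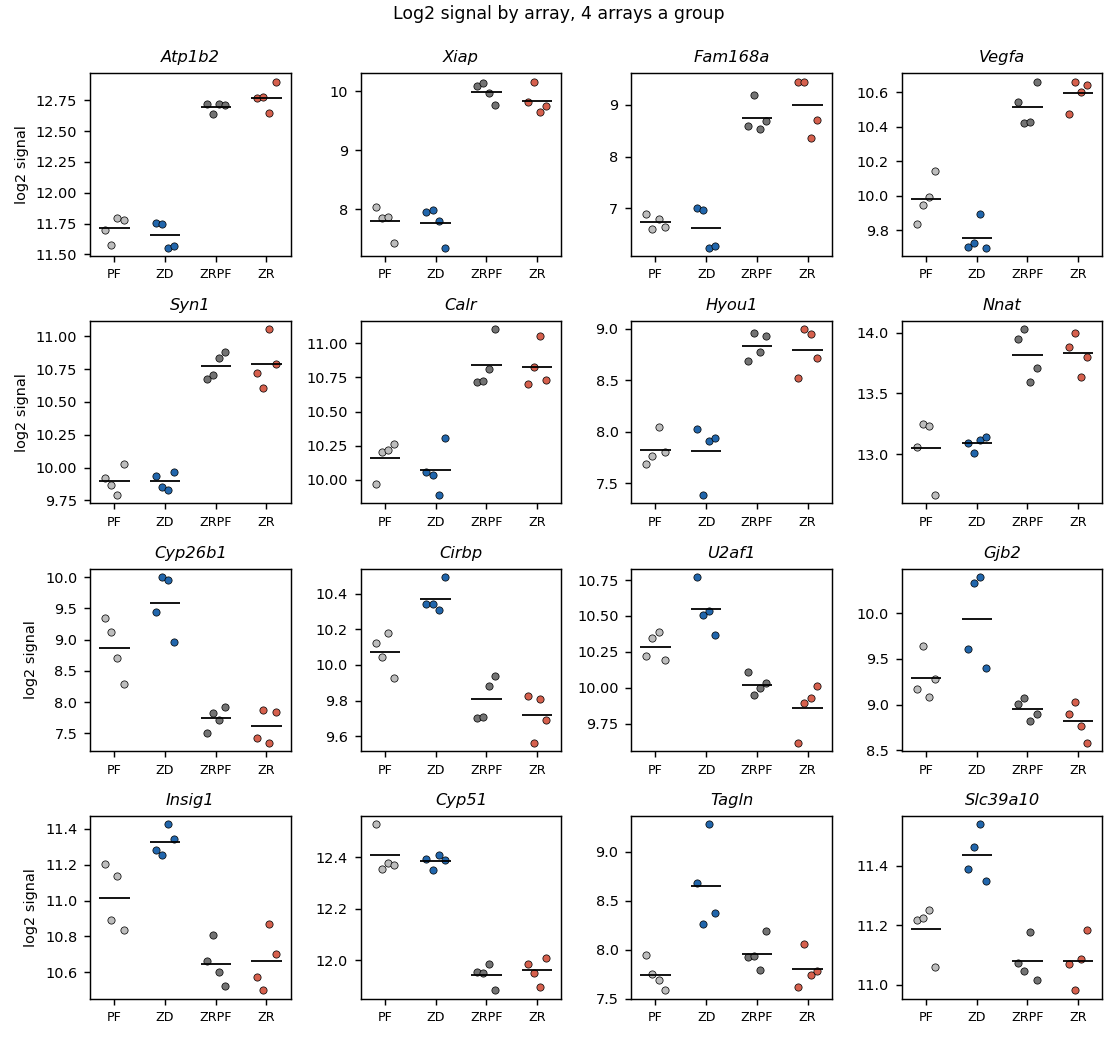
Log2 signal of 16 genes in PF, ZD, ZRPF and ZR, 1 point per array and a bar at the group mean. For Atp1b2, Xiap and Syn1 both 16-day groups lie above both 10-day groups, whereas for Tagln and Slc39a10 the ZD mean lies above those of the other 3 groups.

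No gene passed the test of the difference between contrasts, so the genes ranking first in it are given as values only. Vim, an intermediate filament of ependyma, tanycytes and vessels, had 10.86, 11.20, 11.17 and 10.67 in ZD and 10.66, 10.60, 10.56 and 10.81 in ZR. It was lower by -0.32 ± 0.10 in ZR and higher by 0.42 ± 0.10 in ZRPF, with an unadjusted p of 5.4e-05 between them. Its call in ZR against ZD was lost without any one of ZD3, ZD8, ZR7, ZR10 and ZR13, and with the Gapdh ratio as a covariate. Tbc1d13, a regulator of Rab GTPases, differed by -0.34 ± 0.11 beside 0.41 ± 0.11, and its call in ZR against ZD was lost on leaving out any rat but ZR10 or ZR13, and with that covariate. Vim and Tbc1d13 were the 2 genes called in opposite directions in the 2 contrasts. Clstn3, a calsyntenin of the synapse, had 8.17, 7.65, 7.91 and 8.87 in ZD and 7.18, 7.49, 8.22 and 7.86 in ZR, which overlapped and was not called (-0.46 ± 0.26), while ZRPF minus PF was 1.41 ± 0.26. Tax1bp3 differed by -0.50 ± 0.12 beside 0.28 ± 0.12, and Cdh15, a cadherin, by -0.30 ± 0.12 (not called) beside 0.47 ± 0.12.

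In the other direction, Lyrm2 ranked first. Its brightest probe set had 8.88, 8.68, 8.84 and 8.73 in ZD and 9.46, 9.52, 9.27 and 9.35 in ZR, a difference of 0.62 ± 0.08 beside 0.09 ± 0.08, but its other probe set was called lower, by -0.43 ± 0.12. The direction for Lyrm2 therefore rests on the probe set chosen. Tra2a, a splicing regulator, rose by 0.36 ± 0.08 beside -0.14 ± 0.08, and its second probe set rose by 0.62 ± 0.12 beside 0.38. Zfp638, a zinc finger protein, rose by 0.41 ± 0.09 beside -0.14 ± 0.09, whereas a second probe set rose by 0.69 ± 0.13 beside 0.64 and the third was not called (0.29 ± 0.14). The calls of the brightest probe sets of Tra2a and Zfp638 were lost with the Gapdh ratio as a covariate. Cfdp1, Dpm1 and Vwc2 were not called in ZR against ZD (0.14 ± 0.07, -0.05 ± 0.06 and 0.17 ± 0.12).

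Probe sets of 1 gene often disagreed. Of the 365 called genes with more than 1 tested probe set, 123 had another called in the same direction, 105 (28.8%) had another of opposite sign and 16 had another called in the opposite direction. A probe set nearer the 5′ end of a transcript is read less well where labelling reaches less far, and the spike signals above differed most at the 5′ end. The part of labelling in any single gene was not tested.

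Gene lists were then described by how many tested members were called, to be read against 8.16% higher and 8.42% lower over all genes. A fall in a cell type's genes can mean fewer of its cells or less RNA per cell, and these cannot be told apart in whole tissue.

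**Figure D4:**
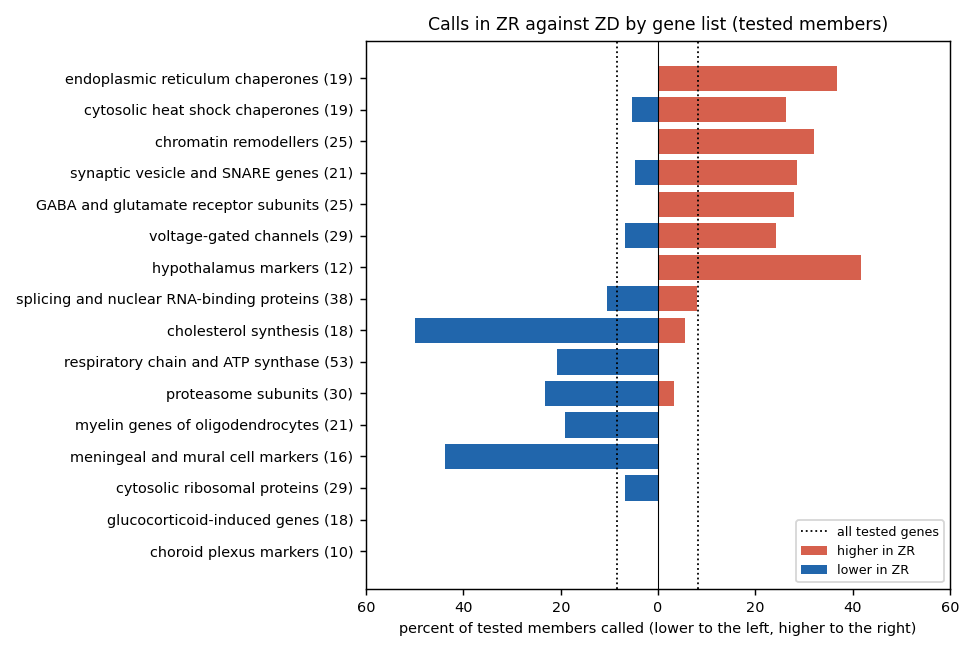
Percent of tested members called higher (right) or lower (left) in ZR against ZD for 16 gene lists, with the number of tested members in brackets and dotted lines at the percentages over all tested genes. Endoplasmic reticulum chaperones, chromatin remodellers and receptor subunits extend only to the right, cholesterol synthesis and mural genes mainly to the left.

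Chaperones of the endoplasmic reticulum, which fold secreted and membrane proteins, were called higher in 7 of 19 tested members and lower in 0. Their median difference was 0.13, beside -0.02 over all genes. The largest was in Hyou1, a large chaperone also induced by low oxygen, with 8.02, 7.38, 7.91 and 7.94 in ZD and 8.52, 9.00, 8.95 and 8.71 in ZR (0.98 ± 0.14, limma, adjusted p = 0.000155). Calr, the calcium-binding chaperone calreticulin, had 10.06, 10.03, 9.89 and 10.30 in ZD and 10.70, 10.82, 11.05 and 10.73 in ZR (0.75 ± 0.10). Dnajc3, a co-chaperone and kinase inhibitor, rose by 0.48 ± 0.10, and Xbp1, a transcription factor of the unfolded protein response, by 0.27 ± 0.08. Manf, Sdf2l1 and Dnajb9 were the other 3 called members (0.38, 0.48 and 0.21) and are named after their values were seen. Sdf2l1 and Dnajb9 were near the threshold (limma, adjusted p = 0.044 and 0.047). Hspa5, the main chaperone of this compartment, was not called, at 12.65, 12.55, 12.50 and 12.21 in ZD and 12.83, 12.91, 12.50 and 12.74 in ZR (0.27 ± 0.11). In ZRPF minus PF, 4 members were called, with 1.01 for Hyou1, 0.67 for Calr, 0.53 for Dnajc3 and 0.32 for Xbp1. The count in ZR against ZD was 4 without ZD8, 3 without ZR10, 3 without ZR15 and 2 (Calr and Hyou1) with the Gapdh ratio as a covariate.

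Chaperone genes of this compartment are known to carry the endoplasmic reticulum stress element (ERSE: CCAAT, 9 bases of any kind, CCACG) or its second form (ERSE-II: ATTGG, any base, CCACG), at which unfolded protein response factors bind. Searched on both strands in the 250 bases before the transcription start in RefSeq (GRCr8), ERSE was found in 0.0657% and ERSE-II in 0.0418% of 33469 promoters. One or the other was present in 4 of the 6 called members and 5 of the 9 uncalled tested members that had a promoter in the table. The windows below show the match in capitals, 5′ to 3′ on the gene's strand, for 4 members that rose and for Hspa5, which was not called.
Calr, chr19:40213117-40213183, plus strand, ERSE read from the opposite strand: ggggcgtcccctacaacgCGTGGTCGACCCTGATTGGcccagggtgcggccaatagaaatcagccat
Dnajc3, chr15:102432504-102432582, plus strand, ERSE: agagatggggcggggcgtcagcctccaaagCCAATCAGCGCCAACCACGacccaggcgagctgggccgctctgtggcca
Xbp1, chr14:84604528-84604606, plus strand, ERSE: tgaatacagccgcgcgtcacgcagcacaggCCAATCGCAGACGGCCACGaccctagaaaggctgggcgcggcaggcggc
Hspa5, chr3:38452943-38453015, plus strand, ERSE: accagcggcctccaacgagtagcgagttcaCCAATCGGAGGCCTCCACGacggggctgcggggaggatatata
Hyou1, chr8:53602764-53602834, plus strand, ERSE-II read from the opposite strand: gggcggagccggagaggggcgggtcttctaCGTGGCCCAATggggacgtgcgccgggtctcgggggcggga
The match ended 24 bases before the start site in Hspa5, 46 in Xbp1, 77 in Hyou1, 114 in Dnajc3 and 213 in Calr. A match describes the letters only, and called and uncalled members both held it.

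Of 19 tested heat shock genes, most of them chaperones of the cytosol, 5 were higher and 1, the mitochondrial Hspe1, was lower. Hspa1a, the inducible Hsp70, had 6.74, 6.75, 7.12 and 6.64 in ZD and 7.93, 8.01, 7.10 and 8.07 in ZR, so that ZR13 lay within the ZD range (0.97 ± 0.21). Stip1, which links Hsp70 to Hsp90, rose by 0.47 ± 0.09, and Hsf1, the heat shock transcription factor, by 0.46 ± 0.11, beside 0.34 and 0.55 in ZRPF minus PF. Cryab, a small heat shock protein of glia, had 11.18, 10.96, 11.35 and 11.41 in ZD and 11.65, 11.93, 11.47 and 12.28 in ZR (0.61 ± 0.18), beside 0.08 ± 0.18 in the pair-fed rats. Its call was lost without any one of ZD2, ZD3, ZR10 and ZR15. Hspe1, of the mitochondrial chaperonin, fell by 0.28 on the log2 scale. The count of higher members was 3 without ZD3, ZR10 or ZR15 and 0 with the Gapdh ratio as a covariate.

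Cholesterol synthesis genes ran the other way, with 9 of 18 tested members lower, 1 higher and a median difference of -0.28. Insig1, which holds back the sterol-sensing transcription factors and is itself one of their targets, had 11.28, 11.25, 11.42 and 11.34 in ZD and 10.58, 10.50, 10.87 and 10.70 in ZR (-0.66 ± 0.09). The sterol demethylase Cyp51 had 12.39, 12.35, 12.41 and 12.39 in ZD and 11.98, 11.95, 11.90 and 12.01 in ZR (-0.42 ± 0.05). The rats within each group were close together on this probe set of Cyp51, and the groups lay wide apart. Msmo1, a methylsterol oxidase, had 12.35, 12.25, 12.31 and 12.40 in ZD and 11.83, 11.74, 11.91 and 11.83 in ZR (-0.50 ± 0.07), and Nsdhl, the next enzyme, differed by -0.41 ± 0.07. The second probe set of Cyp51 did not follow (0.01 ± 0.10), nor did that of Nsdhl (-0.07 ± 0.10). Srebf2, the transcription factor of the pathway, was the single member called higher and is named after its value was seen (0.38, and 0.66 in ZRPF minus PF).

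The pair-fed rats had 5 of these 18 genes lower and 1 higher, with a median of -0.19. Cyp51 differed there by -0.46 ± 0.05, Msmo1 by -0.36 ± 0.07, Nsdhl by -0.28 ± 0.07 and Insig1 by -0.37 ± 0.09. For Insig1 the unadjusted p between contrasts was 0.037, and for Cyp51 it was 0.59. The count of 9 was 8 or 9 when any single rat was left out and 5 with the Gapdh ratio as a covariate.

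**Figure D5:**
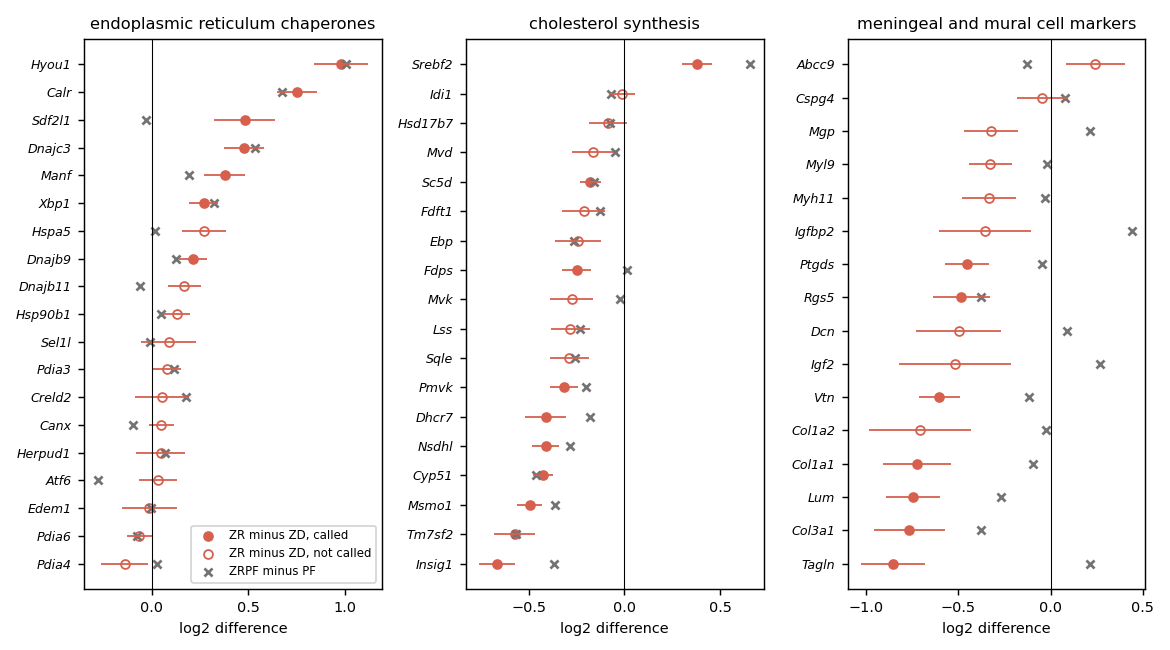
Log2 difference ZR minus ZD with its standard error (red, filled where called) and ZRPF minus PF (grey crosses) for every tested member of 3 lists. In the chaperone and sterol lists the crosses mostly follow the red points, and in the mural list most crosses lie nearer 0.

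Meningeal and mural cell markers, genes of the fibroblasts and smooth muscle around the brain and its vessels, were lower in 7 of 16 tested members and higher in 0. Their median difference was -0.49, beside -0.03 in ZRPF minus PF, where 0 were called. Tagln, which binds actin in smooth muscle cells, had 8.69, 8.26, 9.28 and 8.38 in ZD and 7.61, 8.06, 7.74 and 7.78 in ZR (-0.85 ± 0.17), beside 0.22 ± 0.17. Lum, a matrix proteoglycan, had 8.52, 9.34, 9.29 and 8.84 in ZD and 8.21, 8.20, 8.31 and 8.27 in ZR (-0.75 ± 0.15). The ZR rats were close together for Lum and the ZD rats spread over more than 0.8. Vtn, a matrix protein made by pericytes, fell by 0.60 on the log2 scale (SE 0.11) and the collagen gene Col3a1 by 0.77 (SE 0.19). The unadjusted p between contrasts was under 0.05 for 7 of the 16, as it was for 600 of all 9278 genes, and none passed after adjustment. The summed signal of the list was 18953 to 29648 in ZD and 16052 to 19780 in ZR. The count stayed between 6 and 10 when any single rat was left out and was 0 with the Gapdh ratio as a covariate. How much of this tissue stayed on each dissected diencephalon was not tested.

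Of 53 respiratory chain and ATP synthase subunits, 11 were lower and 0 higher (median -0.14), with 46 of the 53 differences negative. Between PF and ZRPF, 4 were lower and 2 higher (median -0.06), with 36 differences negative. Ndufb5, of complex I, had 12.81, 12.83, 12.78 and 13.06 in ZD and 12.44, 12.50, 12.40 and 12.31 in ZR (-0.46 ± 0.07), beside -0.38 ± 0.07. Ndufb8 (-0.47 ± 0.12) and Ndufs6 (-0.29 ± 0.06), also of complex I, and Sdhd of complex II (-0.20 ± 0.05) fell as well, although the second probe set of Sdhd was not called (-0.27 ± 0.11). The count in ZR against ZD was 6 without ZD2, 4 without ZD9, 7 without ZR13 or ZR15 and 5 without ZR7. It was 5 in a fit of the 8 ZD and ZR arrays alone and 4 with the Gapdh ratio as a covariate. Proteasome subunits were lower in 7 of 30 and higher in 1, with the same median of -0.14 and 27 negative differences. Their pair-fed counts were 5 lower and 1 higher, with a median of -0.12 and 22 negative differences. Psmd14, the deubiquitinating zinc enzyme of the lid, had 11.31, 11.40, 11.40 and 11.48 in ZD and 10.997, 10.98, 10.99 and 10.88 in ZR (-0.44 ± 0.06), and its 2 other probe sets were also called lower. Psmb4 and Psma2, subunits of the proteasome core, fell by 0.33 and 0.27 on the log2 scale. The count of lower proteasome genes in ZR against ZD was 4 without ZD2, ZR13 or ZR15 and 3 without ZD9 or ZR7. It was 3 with the Gapdh ratio as a covariate and 2 in a fit of the 8 arrays alone. Of 14 glycolysis enzymes, 2 were higher and 0 lower, with a median of 0.13. These were Pfkl, the liver form of phosphofructokinase, at 0.90 ± 0.10 beside 0.74 ± 0.10 in the pair-fed rats, and Pfkm, the muscle form, at 0.20 ± 0.05 beside 0.20. The call of Pfkm was lost with the Gapdh ratio as a covariate and with arrays centred on their medians.

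Chromatin remodellers were higher in 8 of 25 tested members and lower in 0. The histone methyltransferase Kmt2a had 9.52, 9.47, 9.39 and 9.18 in ZD and 10.04, 10.04, 10.10 and 10.08 in ZR (0.67 ± 0.08), and its relative Kmt2d had 9.90, 9.80, 9.94 and 9.74 in ZD and 10.63, 10.93, 10.88 and 10.29 in ZR (0.84 ± 0.12). ZD and ZR rats did not overlap for either gene, and the pair-fed differences were 0.75 and 0.78. Kmt2c (0.33 ± 0.08) and Arid1a (0.32 ± 0.07), a subunit of the SWI/SNF complex, rose less. Second probe sets of Kmt2a (-0.22 ± 0.21) and Kmt2c (0.17 ± 0.23) were not called. The count was 3 with the Gapdh ratio as a covariate.

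Synaptic vesicle and receptor genes were called mostly upward, whereas 0 of 11 tested neurofilament and perineuronal net genes were called. Of 21 synaptic vesicle and SNARE genes 6 were higher and 1 lower, and of 25 GABA and glutamate receptor subunits 7 were higher and 0 lower. Syn1, which tethers synaptic vesicles, had 9.94, 9.85, 9.83 and 9.97 in ZD and 10.72, 10.60, 11.05 and 10.79 in ZR (0.90 ± 0.09), and its second probe set rose by 0.80 ± 0.12. Vamp2, the vesicle SNARE, rose by 0.57 ± 0.07, the vesicle protein gene Syp by 0.44 ± 0.07 and the vesicle GTPase gene Rab3a by 0.36 ± 0.08. Gabra2, the alpha 2 subunit of the GABA-A receptor, had 7.67, 7.73, 7.44 and 7.19 in ZD and 8.69, 8.96, 8.90 and 8.37 in ZR (1.22 ± 0.17). Grin3a, a subunit of the NMDA receptor, rose by 0.76 ± 0.13, Gabrb2 by 0.47 ± 0.11 and Gabbr1, of the GABA-B receptor, by 0.30 ± 0.07. The 3 other probe sets of Gabbr1 were not called and ran from -0.34 to 1.08. In ZRPF minus PF 6 members of each list were higher, with 0.87 for Syn1, 1.20 for Gabra2 and 0.82 for Grin3a.

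Of 29 voltage-gated channel genes, 7 were higher and 2 lower. The sodium channel Scn3a, known mainly from the young brain, had 8.81, 8.90, 8.99 and 8.73 in ZD and 10.07, 10.21, 10.07 and 10.05 in ZR (1.24 ± 0.13), beside 1.08 ± 0.13. Cacna1g, a T-type calcium channel of thalamic burst firing, rose by 0.72 ± 0.10 and the pacemaker channel Hcn2 by 0.46 ± 0.11. Scn4b, an auxiliary sodium channel subunit, fell by 0.53 on the log2 scale. With the Gapdh ratio as a covariate the counts of higher members were 4 of the vesicle genes, 3 of the receptor subunits and 4 of the channels (0 of the 2 lower ones), and 4 receptor subunits were called with the 8 ZD and ZR arrays alone.

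Myelin genes had 4 of 21 members lower and 0 higher, with a median of -0.04. Between PF and ZRPF, 4 members were lower and 1 higher, with a median of -0.03. Opalin, a protein of myelinating oligodendrocytes, had 12.29, 11.90, 12.10 and 12.11 in ZD and 11.77, 11.60, 11.72 and 11.24 in ZR (-0.52 ± 0.12). Gal3st1 (-0.53 ± 0.13) and Ugt8 (-0.39 ± 0.11), which make the myelin lipids sulfatide and galactosylceramide, fell beside -0.48 and -0.46 in the pair-fed rats. The brightest probe set of Mbp, myelin basic protein, was not called (0.14 ± 0.09), but its 2 others were lower, by -0.79 ± 0.11 and -0.57 ± 0.10, so no single direction can be given for Mbp. The count of 4 in ZR against ZD was 2 without ZD8, ZR7 or ZR13 and 0 with the Gapdh ratio as a covariate. Of 17 tested astrocyte markers 1 was higher and 0 lower, with a median of 0.09. It was Gfap, the intermediate filament of astrocytes, at 0.41 ± 0.10, a call also lost with that covariate. The brightest probe set of the astrocyte marker Aqp4 was not called. Another was higher by 1.55 ± 0.24, beside 1.53 in the pair-fed rats, and a further one was not called (0.39 ± 0.19). Between PF and ZRPF, 4 astrocyte markers were higher and 0 lower. Of 11 tested microglia and myeloid markers 0 were higher and 1 lower, with a median of -0.01. It was Lyz2, a lysozyme of myeloid cells, at -0.34 ± 0.09, while Aif1 was not called (-0.01 ± 0.13). The call of Lyz2 was lost without any one of ZD2, ZR13 and ZR15, and with the Gapdh ratio as a covariate.

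Of 38 tested splicing and nuclear RNA-binding proteins, 3 were higher and 4 lower, shares near those over all genes (8.16% and 8.42%). The lower ones were Cirbp, Rbm3, U2af1 and Hnrnpdl (-0.40 ± 0.08), and the second probe set of Hnrnpdl was not called (-0.11 ± 0.09). The higher ones included Tra2a, and their count was 1 without ZD2, 5 without ZD3 or ZD8 and 0 with the Gapdh ratio as a covariate, which left 2 lower.

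Hypothalamus markers were higher in 5 of 12 tested members and lower in 0, with a median of 0.36 beside 0.38 in ZRPF minus PF. Nnat, an imprinted gene of the hypothalamus and of young neurons, had 13.09, 13.01, 13.12 and 13.14 in ZD and 13.88, 14.00, 13.64 and 13.80 in ZR (0.74 ± 0.12), beside 0.77 ± 0.12. Oxt, oxytocin, had 11.85, 11.49, 10.91 and 12.60 in ZD and 12.78, 12.62, 12.43 and 12.74 in ZR, so that the groups overlapped through ZD9 (0.93 ± 0.23). Dlk1, an imprinted Notch ligand, rose by 0.70 ± 0.15 and Hap1, of hypothalamic neurons, by 0.42 ± 0.09. Hcrt, the arousal and feeding peptide orexin, differed by 0.30 ± 0.09, a call lost without ZD8 or ZR10. It was also lost with the Gapdh ratio as a covariate and with the 8 ZD and ZR arrays alone. Thalamus markers were lower in 1 of 20 tested members and higher in 0. The count of hypothalamus markers was 4 to 6 when any single rat was left out and 1 with the Gapdh ratio as a covariate. How much hypothalamus each dissection held was not tested.

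Of 15 tested feeding and energy balance peptides, 2 were higher and 1 lower. Bdnf, a neurotrophin that also restrains feeding, had 7.68, 7.75, 7.44 and 7.60 in ZD and 8.40, 8.57, 8.03 and 8.25 in ZR (0.69 ± 0.13, limma, adjusted p = 0.00179), beside 0.44 ± 0.13. Nucb2, the precursor of nesfatin-1, differed by -0.41 ± 0.13 (limma, adjusted p = 0.0387), a call lost on leaving out any rat but ZD2 or ZR10. It was also lost with the Gapdh ratio as a covariate, with array weights and with no signal filter. Npy, the hunger peptide neuropeptide Y, was not called, at 10.57, 10.48, 10.00 and 10.53 in ZD and 10.19, 10.47, 10.55 and 10.20 in ZR (-0.04 ± 0.11). Cartpt (-0.10 ± 0.13), Pmch (0.05 ± 0.07), Gal (0.40 ± 0.14), Crh (-0.01 ± 0.12), Trh (0.08 ± 0.11) and Sst (0.15 ± 0.13) were not called either. Gal came nearest, with an adjusted p of 0.0513 in limma. The count of higher peptides was 1 without ZD8, without ZR10 or with the Gapdh ratio as a covariate.

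The receptor of Npy, Npy1r, had 9.16, 9.43, 9.84 and 9.31 in ZD and 9.96, 9.86, 9.95 and 9.68 in ZR (0.43 ± 0.12), beside -0.15 ± 0.12 in the pair-fed rats. ZD8 lay within the ZR range, and the unadjusted p between contrasts was 0.0034. The call of Npy1r was lost without any one of ZD2, ZD9, ZR7 and ZR13, and with the 8 ZD and ZR arrays alone. Igf1r, the receptor of insulin-like growth factor 1, rose by 0.53 ± 0.10, and its second probe set by 0.53 ± 0.12, beside 0.35 and 0.23. Igfbp5, which binds that growth factor, rose by 0.67 ± 0.09 on its brightest probe set, whereas the other was at -0.52 ± 0.20 and not called. Adipor2, a receptor of adiponectin, had 9.24, 9.54, 9.62 and 9.72 in ZD and 8.59, 8.88, 8.95 and 9.10 in ZR (-0.65 ± 0.13), beside -0.23 ± 0.13. Its call was lost with the Gapdh ratio as a covariate, and its second probe set was not called (-0.13 ± 0.17). Avp, vasopressin, was spread widely in ZD (11.38, 11.36, 9.93 and 12.20) and less so in ZR (11.74, 11.63, 11.85 and 12.00), and was not called (0.59 ± 0.29).

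Among genes of zinc handling, 1 of 8 tested ZIP importers was called and 0 of 6 ZnT exporters. Slc39a10, the importer ZIP10, had 11.39, 11.46, 11.54 and 11.35 in ZD and 11.07, 10.98, 11.08 and 11.18 in ZR. Every ZR rat was below every ZD rat, and the difference was -0.35 ± 0.06 (limma, adjusted p = 0.00118), beside -0.11 ± 0.06 in the pair-fed rats, which was not called. The unadjusted p between contrasts was 0.015. The call of Slc39a10 was kept in all 8 fits that left out 1 rat and with the Gapdh ratio as a covariate. The metallothionein genes were not called in ZR against ZD. Mt2A had 10.28, 9.94, 10.35 and 10.57 in ZD and 9.93, 10.74, 10.16 and 10.49 in ZR (0.05 ± 0.19), beside -0.10 in the pair-fed rats. Mt3, the brain form, differed by 0.11 ± 0.10, beside 0.32 in the pair-fed rats, which was called. Mt1 and the exporter gene Slc30a1 were below the signal filter and not tested.

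Of 18 tested clock genes 1 was higher and 2 were lower. Nr1d1, a repressor of the clock, had 8.30, 8.49, 8.85 and 8.97 in ZD and 7.92, 8.05, 8.08 and 8.07 in ZR (-0.63 ± 0.15), beside 0.17 ± 0.15, with an unadjusted p between contrasts of 0.0014. Dbp, a clock output gene, differed by -0.37 ± 0.12, a call lost without any one of ZD3, ZD9, ZR10 and ZR15, and Per1, a core clock gene, by 0.21 ± 0.18. The hours of killing are not given in the sources used here. Rorb, a nuclear receptor, had 7.80, 7.25, 6.15 and 5.96 in ZD and 8.58, 8.03, 8.29 and 7.78 in ZR (1.38 ± 0.32). The calls of Nr1d1, Dbp and Rorb were lost with the Gapdh ratio as a covariate. Glucocorticoid-induced genes were called in 0 of 18, although 2 were called higher in the pair-fed rats. Fkbp5 differed by -0.10 ± 0.21 and Tsc22d3 by 0.23 ± 0.10. Of 12 tested activity (immediate early) genes 1 was higher and 1 lower, shares near those over all genes. Nr4a2 rose by 0.61 ± 0.15, a call lost with the Gapdh ratio as a covariate. Jun differed by -0.28 ± 0.09 and its second probe set by -0.81 ± 0.15 (called), beside -0.39 and -1.40 in the pair-fed rats. The call on the brightest probe set of Jun was lost without any one of ZD2, ZD9, ZR7, ZR10 and ZR15, and with that covariate. Fos (0.22 ± 0.18) and Egr1 (0.15 ± 0.17) were not called.

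Markers of other cells that a dissection can carry varied between rats. Ttr, made by choroid plexus, had 12.76, 13.28, 11.24 and 9.82 in ZD and 8.35, 14.28, 9.00 and 13.66 in ZR, and 0 of 10 tested choroid plexus markers were called. Their summed signal was 10208 to 22434 in ZD and 8364 to 35446 in ZR. Hbb, of red blood cells, had 11.90, 11.92, 11.87 and 12.09 in ZD and 10.55, 11.44, 11.44 and 11.93 in ZR (-0.60 ± 0.18), a call lost without any one of ZD2, ZD3, ZD9 and ZR7. The call of Hbb was also lost with the Gapdh ratio as a covariate, with the 8 ZD and ZR arrays alone and with no signal filter. Id2, an inhibitor of bHLH transcription factors, fell by 0.53 on the log2 scale (SE 0.11), beside -0.93 ± 0.11 in the pair-fed rats, but its second probe set was called in neither contrast (-0.14 ± 0.18 and -0.19). Thra, a thyroid hormone receptor, rose by 0.46 ± 0.10 and Gpx3, a secreted glutathione peroxidase, by 0.49 ± 0.12, beside 0.61 and 0.80. The calls of Thra and Gpx3 were lost with the Gapdh ratio as a covariate.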

How the data were processed

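RNA of 1 diencephalon per array (100 ng total RNA, 3′ IVT labelling) was read on Affymetrix rat arrays, 4 per group. The deposited signal intensity of each probe set was made by the authors with MAS5, per the submitters' processing notes, whose version is not given in the sources used here. Each value was turned into a log2 value of the deposited intensity, with no further normalization. Of 31042 non-control probe sets, the 15521 with a mean log2 signal at or above the median (7.35, a signal of 163) were tested. All 16 arrays entered 1 limma fit (limma 3.58.1, R 4.3.3; group means, intensity trend, moderated two-sided test), with Benjamini-Hochberg adjustment over all tested probe sets and a threshold of 0.05. The scripts were tested on simulated data. The number of arrays limits the precision.

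In the platform annotation 20826 probe sets had 1 gene, 436 several and 9780 none listed, and 20758 of the first were found in RefSeq by gene ID. Genes were named by a rule: the 12 of smallest p and the 8 of largest difference in each direction among called genes, the 6 of smallest p in each direction for the difference between contrasts, a fixed set, and up to 4 members of largest statistic per list. The comparison, the lists and the fixed set were chosen with earlier results of these data known. Promoter windows came from RefSeq (GRCr8). Alternatives covered normalization, filter, offset, trend, array weights, covariates, the arrays in the fit, a fold threshold and leaving out each array. PF and ZRPF share the rat numbers 2, 4 and 6, but these were different rats of separate feeding experiments, so no block was used.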

Additional observations from a re-analysis of the deposited data

Results flagged for a closer look

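In 17 of the 252 groups of 4 arrays looked at (ZD and ZR for 126 genes), 1 array stood apart from the other 3 by Dixon's criterion. Chance alone gives about 1 in 20 groups. All values are log2 signals. In ZD, the array of ZD9 was low for Grin3a (6.99, others 7.59 to 7.69) and high for Ndufb5 (13.06, others 12.78 to 12.83). ZD8 was low for Npy (10.00, others 10.48 to 10.57) and Rasal2 (10.12, others 10.30 to 10.31) and high for Vegfa (9.89, others 9.70 to 9.72). ZD3 was high for Lamp5 (9.26, others 8.78 to 8.86) and Pmch (13.29, others 13.18 to 13.20).

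In ZR, the array of ZR15 was high for Cartpt (11.22, others 10.91 to 10.95), Hsf1 (9.14, others 8.83 to 8.86) and Sst (10.05, others 9.59 to 9.65), and low for Psmd14 (10.88, others 10.98 to 10.997) and Syp (11.93, others 12.11 to 12.13). ZR13 was low for Arid1a (10.69, others 10.87 to 10.89), Hspa1a (7.10, others 7.93 to 8.07) and Zfp74 (8.45, others 8.68 to 8.70). ZR7 was low for Nr1d1 (7.92, others 8.05 to 8.08), and ZR10 was high for Scn3a (10.21, others 10.05 to 10.07).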

How the results depend on the processing

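The 2692 probe sets called in ZR against ZD became 786 with the Gapdh 3′ to 5′ ratio as a covariate and 621 with a fold change of at least 1.5 required as well, and ranged from 2028 to 2588 when 1 array was left out. The 2430 called in ZRPF against PF became 771 with that covariate, 1343 with the choroid plexus covariate and 591 with the fold threshold, and ranged from 1681 to 2264 on leaving out 1 array. The Gapdh ratio differed between ZD and ZR without overlap, so that covariate and the contrast share much of their variation. The difference between contrasts had 0 probe sets, and 0 to 1 on leaving out 1 array (1 without ZD9, 1 without ZRPF4). Centring arrays on their medians moved the share of higher calls in ZRPF against PF from 60.7% to 31.2%, and in ZR against ZD from 52.8% to 46%. Requiring the fold threshold moved the latter to 69.2%.

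With the shared rat number as a replicate block, PF and ZRPF rats 2, 4 and 6 gave 1085 probe sets, and the same 6 arrays without the block 1305, the latter chosen after seeing the data, as were the list counts under each alternative. Deviations of same-numbered rats correlated at 0.0789, 0.0198 and 0.0351, and ZD and ZR share no numbers.

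Of 138 named genes called in ZR against ZD, 105 kept the call in all 8 fits that left out 1 array, 58 in all other alternatives run, and 77 lost it with the Gapdh covariate. No named gene that was called changed sign under these alternatives. With all tested probe sets of a gene in place of the brightest, the median of chromatin remodellers was 0.23, of myelin genes -0.12 and of neuron maturation genes 0.02. The number of arrays, and signal near the filter for genes such as Fam168a and Rorb, limit the precision.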
